A study of Caenorhabditis elegans with 6 samples.

Results

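The caenacins, the nlp peptides of the nlp-29 cluster, the fungus-induced proteins and the antibacterial factors are small secreted peptides of Caenorhabditis elegans, and the thaumatin-like proteins are counted with them here as candidate antimicrobial proteins. They were followed in wild-type N2 animals exposed to RPW-24, a small molecule built on a quinazoline diamine with a chlorinated methylphenyl group on one of its amines. Members were the genes named cnc, fip, fipr, abf or thn in the array annotation, together with nlp-27 to nlp-34, that had a probe set annotated to that gene alone. Each gene was represented by its probe set with the highest mean over the 6 arrays. This gave 37 genes of the 17118 with such a probe set: 8 cnc, 7 nlp, 13 fip or fipr, 5 abf and 4 thn genes.

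Animals were synchronized at the arrested L1 stage, grown on E. coli OP50 to late L4, and then kept for 15 hours at 15°C in liquid medium with OP50. One group received 70 µM RPW-24 and the other the solvent, and DMSO was at 1% in both. Each group had 3 biological replicates, named G, H and I, with 1 Affymetrix whole-genome array each, and RNA came from whole animals with no pathogen present. RNA of whole animals pools all tissues, so a change in the number of cells of a type and a change in RNA per cell cannot be told apart.

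In the epidermis, nlp-29 and its neighbours are known to be switched on by fungal infection and wounding through a p38 MAP kinase cascade with PMK-1, TIR-1 and the STAT-like factor STA-2. Caenacins such as cnc-2 are known to be controlled in the same tissue by the TGF-beta ligand DBL-1, which neurons secrete. The fip genes were named for their induction by a fungus that infects through the cuticle. The abf genes encode defensin-like peptides, and ABF-2 is an antimicrobial peptide of the pharynx. Thaumatin-like proteins are best known in plants as pathogenesis-related proteins.

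All values are deposited GC-RMA intensities, on a linear scale after background correction and quantile normalization. The table has a lowest intensity of 4.39, and 36.8 to 38.5% of the probe sets of an array lay at it. Median intensity was 9.83 to 9.98 on the RPW-24 arrays and 8.94 to 9.04 on the DMSO arrays. Differences are log2 intensity in RPW-24 minus DMSO, with the standard error (SE) of limma's moderated test, and p-values were adjusted by Benjamini and Hochberg over 22548 probe sets. A gene was called at an adjusted p under 0.05. A 2nd criterion, taken from the study's methods, was a fold of at least 3 with an unadjusted p under 0.025.

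By limma's test 3 members rose under RPW-24 (nlp-31, fipr-24 and fipr-26), 1 fell (cnc-8), and 33 were not called. The rises were 8.11% of the members, against 2.63% of all 17118 genes, and the fall was 2.7% of the members, against 1.08% of all genes. At the study's thresholds, fipr-24 and fipr-26 passed as higher and cnc-2 as lower, where 1.63% of all genes passed as higher and 0.38% as lower. The median difference was 0.00 over the 37 members and 0.00 over all genes. Of the 37 members, 11 were at the lowest intensity on all 6 arrays, as were 34.4% of all genes, so that no direction could be read for them.

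With the replicate letter as a block, none of the 4 calls remained, and without the block 7 members were higher and 4 lower at an unadjusted p under 0.05 by limma, where 7.1% of all genes were higher and 8.2% lower. The methods' t-test gave 7 and 3 members, where 6.05% of all genes were higher and 6.74% lower. When the test was limited to probe sets with a mean log2 intensity of at least 5, which 14 of the 37 members and 43% of all genes (7365) reached, 3 members were called higher (cnc-4, nlp-27 and nlp-31) and 3 lower (cnc-2, cnc-3 and cnc-8). The background in that set was 10.3% higher and 6.8% lower. With both the block and this limit, nlp-31 was called higher and cnc-2, cnc-3 and cnc-8 lower, where 10.1% of the bright genes were higher and 4.34% lower.

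**Figure D1:**
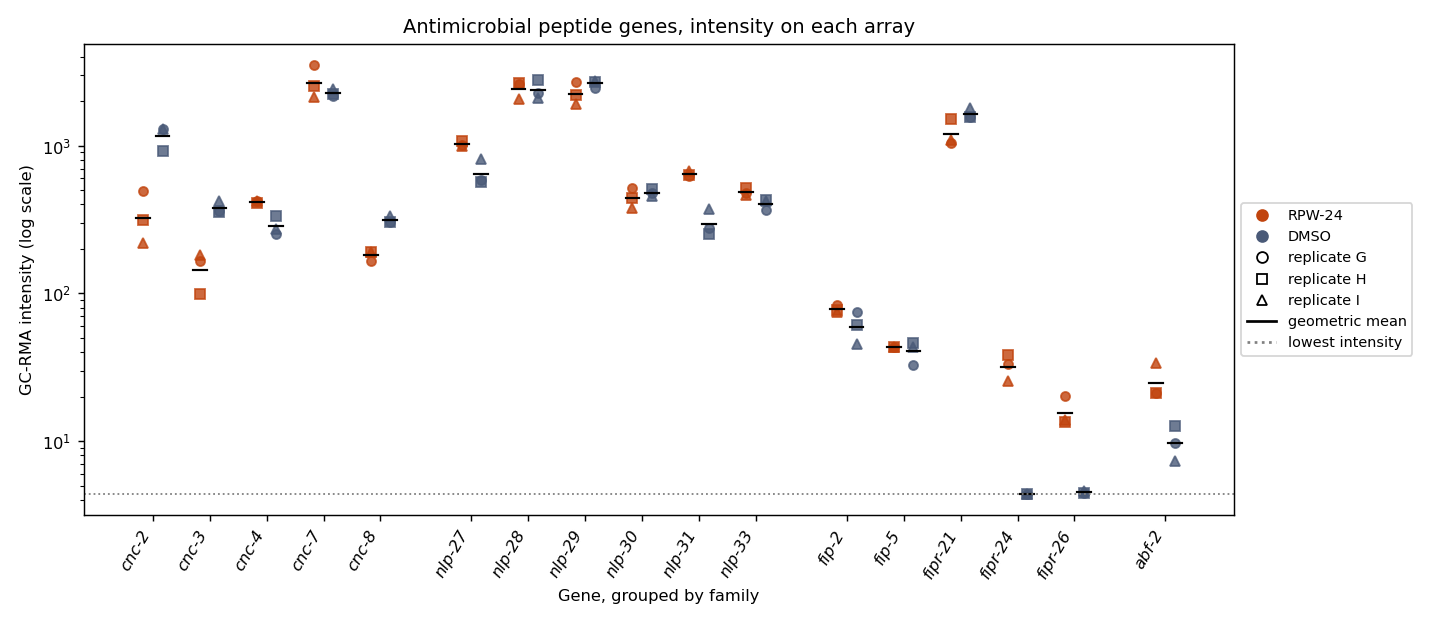
Intensity on each of the 6 arrays (log axis) for 17 antimicrobial peptide genes, grouped by family, with RPW-24 in orange to the left of DMSO in blue, the replicate letter as the marker shape and a black line at the geometric mean. The RPW-24 points of cnc-2, cnc-3 and cnc-8 lie below those of DMSO, the RPW-24 points of cnc-4, nlp-27 and nlp-31 lie above, and the DMSO points of fipr-24 lie on the dotted line of the lowest intensity, 4.39.

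The caenacins, a family of glycine-rich peptides, held the members with the lowest values relative to DMSO. Of the 8 genes measured, cnc-8 fell, cnc-2 passed the study's thresholds as lower, and none was called higher. Among the 5 with a mean log2 intensity of at least 5, the median difference was -0.79, against -0.07 for the 7365 genes of that brightness. The groups did not overlap for 3 of these 5 in the lower direction and 1 in the higher, where 22.7% and 16.2% of bright genes did the same.

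For cnc-8, intensity was 165, 191 and 191 in RPW-24 replicates G, H and I, against 304, 304 and 335 in DMSO. Every RPW-24 array lay below every DMSO array, and the groups averaged 182 ± 14.7 in RPW-24 and 314 ± 17.97 in DMSO (SD, n = 3 each). The difference was -0.79 (SE 0.08, adjusted p = 0.0157), a 1.73-fold lower level. With the replicate block the adjusted p was 0.0799. Leaving out 1 array at a time gave 0.0263 to 0.0717, with the call kept only without RPW-24 replicate G. The RPW-24 values of replicates H and I were identical, which makes the spread of that group small.

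The gene cnc-2, the caenacin most often used as a readout of epidermal DBL-1 signalling, had intensities of 494, 312 and 218 in RPW-24, against 1293, 927 and 1302 in DMSO. The highest RPW-24 array was well below the lowest DMSO array, and the means were 341 ± 140 and 1174 ± 214 (SD, n = 3 each). The difference of -1.85 (SE 0.35) corresponded to a 3.59-fold lower level and was the largest in size among the 14 brighter members. The replicate pairs G, H and I gave -1.39, -1.57 and -2.58. The adjusted p was 0.0784, and 0.0138 when the test was limited to the brighter probe sets. Without RPW-24 replicate I the gene no longer passed the study's thresholds.

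The neighbouring caenacin gene cnc-3 had 166, 99.8 and 181 in RPW-24, against 362, 356 and 424 in DMSO. Its groups did not overlap either, with means of 149 ± 43.2 in RPW-24 and 381 ± 37.6 in DMSO (SD, n = 3 each). The difference was -1.40 (SE 0.26, adjusted p = 0.0758), and the adjusted p was 0.0139 among the brighter probe sets. Without RPW-24 replicate H the call was made over all probe sets as well (adjusted p = 0.0407). Both cnc-2 and cnc-3 were read by probe sets of the _x_at type, whose probes can also bind RNA of related genes, and the share of each gene in the 2 signals was not tested.

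The other caenacins did not share this pattern. For cnc-4, intensity was 421, 412 and 421 in RPW-24, against 254, 337 and 272 in DMSO. All 3 RPW-24 arrays exceeded all DMSO arrays, with means of 418 ± 5.14 and 287 ± 43.5 (SD, n = 3 each). The difference was 0.55 (SE 0.12, adjusted p = 0.0986), with 0.0288 among the brighter probe sets (0.056 with the replicate block there) and 0.0201 over all probe sets without DMSO replicate H. In cnc-7, intensities of 3491, 2525 and 2135 in RPW-24 overlapped those of 2167, 2226 and 2435 in DMSO, with a difference of 0.23 (SE 0.20, adjusted p = 0.731). A 2nd probe set of cnc-7 gave 0.21. The remaining 3, cnc-1, cnc-5 and cnc-6, had intensities of 4.39 to 8.21, and cnc-6 was at the lowest intensity on every array.

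The nlp genes of the cluster encode glycine- and tyrosine-rich peptides that accumulate in the epidermis after infection. Of the 7 measured, nlp-31 rose and none was called lower. The 6 with a mean log2 intensity of at least 5 had a median difference of 0.15, against -0.07 for the 7365 genes of that brightness. The groups did not overlap for 3 of the 6, all higher in RPW-24 (nlp-27, nlp-31 and nlp-33). Of the bright genes, 16.2% were apart as higher and 22.7% as lower. nlp-32 lay at the lowest intensity throughout, and nlp-34 had no probe set of its own.

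For nlp-31, whose peptide is active against fungi in vitro, intensity was 619, 631 and 675 in RPW-24, against 279, 252 and 373 in DMSO. The ranges were far apart, and the means were 642 ± 29.6 in RPW-24 and 301 ± 63.8 in DMSO (SD, n = 3 each). The difference of 1.11 (SE 0.16, adjusted p = 0.0424) was a 2.16-fold rise. With the replicate block the adjusted p was 0.116, or 0.00988 with the block among the brighter probe sets. Leaving out 1 array at a time gave 0.0163 to 0.144, with the call kept only without DMSO replicate I.

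For nlp-27, at one end of the same cluster, intensity was 1005, 1073 and 993 in RPW-24, against 589, 565 and 809 in DMSO. The groups did not overlap, although DMSO replicate I stood above the other DMSO arrays. The difference was 0.66 (SE 0.16), and the adjusted p of 0.129 became 0.0323 among the brighter probe sets (0.057 with the replicate block there) and 0.0185 without DMSO replicate I. For nlp-33, which lies outside the cluster, the values were 475, 517 and 462 in RPW-24, against 364, 427 and 423 in DMSO. The gap between the groups was small and the difference, 0.26 (SE 0.08), had an adjusted p of 0.245.

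The gene nlp-29, the standard reporter of the epidermal response to fungus and wounding, had 2709, 2191 and 1916 in RPW-24, against 2470, 2716 and 2734 in DMSO. The groups overlapped and the difference was -0.23 (SE 0.14, adjusted p = 0.619). For nlp-28 the values were 2627, 2665 and 2057 in RPW-24, against 2268, 2781 and 2111 in DMSO, with a difference of 0.04 (SE 0.16, adjusted p = 1). In nlp-30 the means were 446 in RPW-24 and 481 in DMSO, with a difference of -0.12 (SE 0.13, adjusted p = 0.808). Thus 3 members of this cluster had bright signals and overlapping groups, beside nlp-31 and nlp-27 with groups apart. All 5 of these genes were read by _x_at probe sets, whose probes can also bind RNA of related genes. The share of each gene in these signals was not tested.

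**Figure D2:**
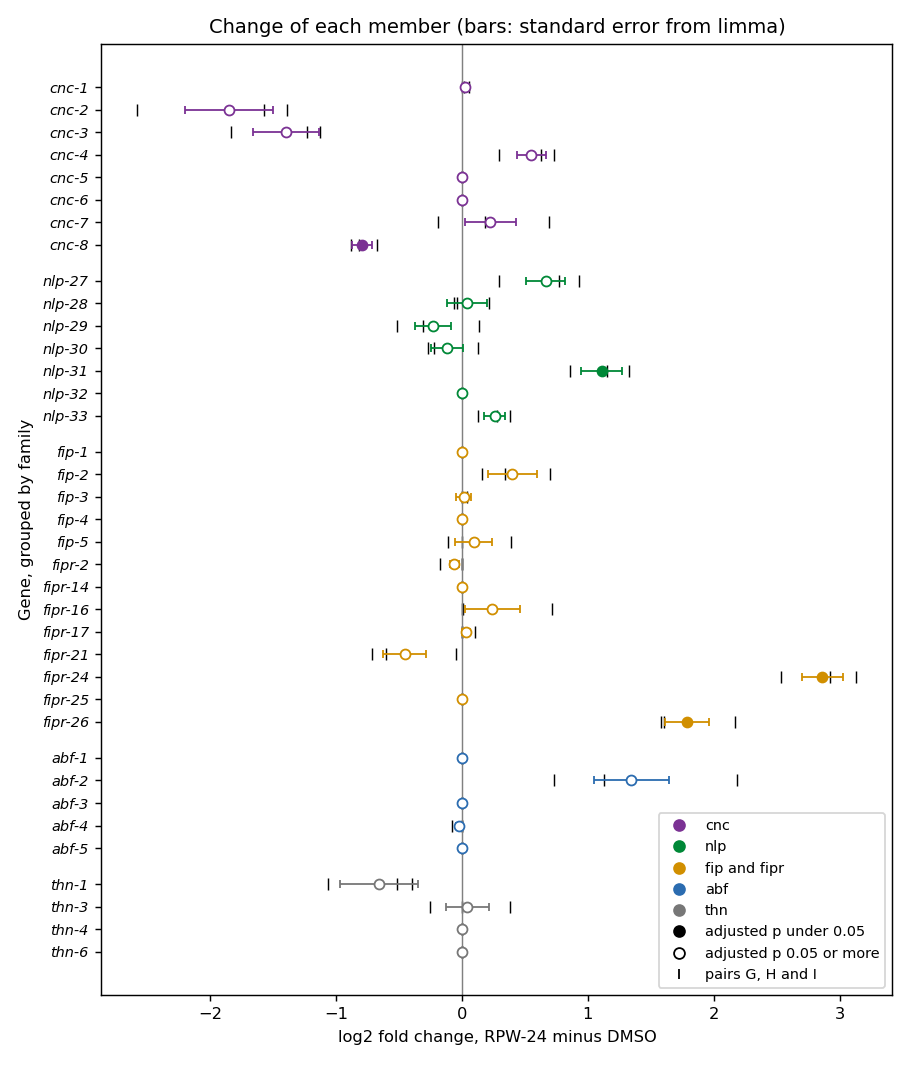
Difference in log2 intensity (RPW-24 minus DMSO) of all 37 members, grouped by family, with bars for limma's standard error, filled circles for an adjusted p under 0.05 and black ticks for the replicate pairs G, H and I. The 3 filled circles to the right of 0 are nlp-31 (1.11), fipr-24 (2.86) and fipr-26 (1.78), the one to the left is cnc-8 (-0.79), and many genes at the lowest intensity sit at 0.

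In the genome annotation WBcel235, nlp-34, nlp-31, nlp-30, nlp-29, nlp-28 and nlp-27 follow each other with no other protein-coding gene between them. The differences of neighbours were therefore set in this order: 1.11 for nlp-31, -0.12 for nlp-30, -0.23 for nlp-29, 0.04 for nlp-28 and 0.66 for nlp-27. The genes at the ends of the measured run had the higher values and the 3 between them had values near 0. A run of caenacins reads cnc-11, cnc-1, cnc-5, cnc-4, cnc-3 and cnc-2, in which cnc-4 had 0.55 beside -1.40 for cnc-3 and -1.85 for cnc-2. Here adjacent genes differed in sign. A 3rd run holds fip-5, fipr-21 and cnc-8, with 0.09, -0.45 and -0.79.

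**Figure D3:**
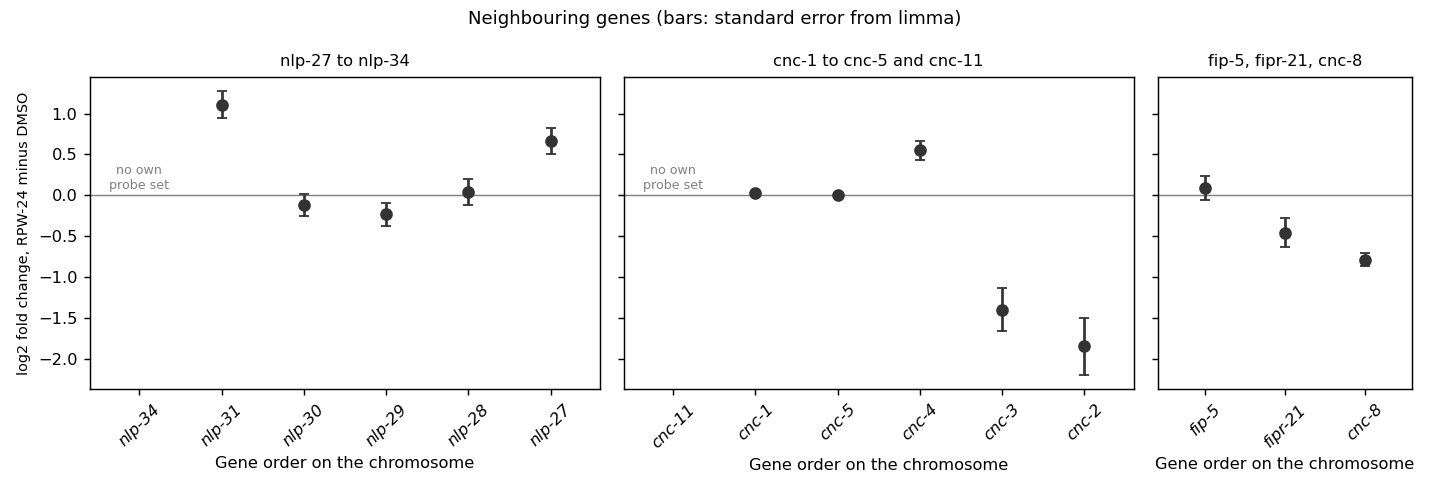
Difference in log2 intensity (RPW-24 minus DMSO, with limma's standard error) of family genes that are direct neighbours, in their order on the chromosome. Adjacent genes differ, with 1.11 for nlp-31 beside -0.12 for nlp-30 and 0.55 for cnc-4 beside -1.40 for cnc-3.

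Among the 13 fip and fipr genes, fipr-24 and fipr-26 rose, and none was called lower. Both were dim, and neither reached a mean log2 intensity of 5. They were read by an _x_at probe set (fipr-24) and an _s_at probe set (fipr-26), types that can also bind RNA of related genes, and the part of such RNA in their signals was not tested. The median difference of the family was 0.01, and 4 of its genes were at the lowest intensity on all 6 arrays.

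For fipr-24, intensity was 33.2, 38.5 and 25.4 in RPW-24, and all 3 DMSO arrays were at the lowest intensity of 4.39. The signal was thus above that lowest value in every RPW-24 sample and in no DMSO sample. The mean of 32.4 ± 6.60 (SD, n = 3) in RPW-24 was at least 7.26-fold higher than in DMSO. The fitted difference was 2.86 (SE 0.16, adjusted p = 0.00292) and depends on where the lowest value lies. With the replicate block the adjusted p was 0.0572, and with all values under 32 set to 32 the difference was 0.11. The call was kept in each of the 6 fits that left out 1 array.

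For fipr-26, the values were 20.1, 13.4 and 13.9 in RPW-24, against 4.47, 4.47 and 4.59 in DMSO. The groups did not overlap, and the DMSO arrays were all close to the lowest intensity. The means were 15.8 ± 3.74 in RPW-24 and 4.51 ± 0.069 in DMSO (SD, n = 3 each), at least 3.45-fold higher since the DMSO values are near the lowest that the table holds, with a difference of 1.78 (SE 0.17, adjusted p = 0.0141). The adjusted p was 0.101 with the replicate block. It was 0.000743 to 0.079 with 1 array left out, and the call was kept only without RPW-24 replicate G and without RPW-24 replicate H. With values under 32 set to 32 the difference was 0.00.

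The other fip and fipr genes of this family included fipr-21 and fip-2. Intensity of fipr-21 was 1034, 1525 and 1092 in RPW-24, against 1572, 1572 and 1791 in DMSO. The groups did not overlap, although RPW-24 replicate H came close to the DMSO arrays. The difference was -0.45 (SE 0.17, adjusted p = 0.332). Of the 3 bright genes of this family, 1 was apart as lower and 0 as higher, where 22.7% and 16.2% of bright genes were. For fip-2, 83.0, 77.6 and 74.4 in RPW-24 stood against 74.4, 61.1 and 45.8 in DMSO, with a difference of 0.40 (SE 0.20, adjusted p = 0.468). A 2nd probe set of fip-2 gave 0.55 (adjusted p = 0.311). The other 9 genes had intensities of 4.39 to 46.5 and differences of -0.06 to 0.24.

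A further 8 probe sets carried a family gene together with another gene and belonged to no single member. A pair of them, annotated to both fipr-22 and fipr-23, was higher in RPW-24. The first gave 211, 237 and 192 in RPW-24, against 13.8, 13.9 and 10.8 in DMSO. The second gave 108, 140 and 166 in RPW-24, against 5.76, 9.18 and 8.10 in DMSO. Both were far higher in every RPW-24 array, 16.6-fold (difference 4.06, SE 0.14, adjusted p = 0.000899) and 18.01-fold (4.17, SE 0.25, adjusted p = 0.0035), and the differences were 2.73 and 2.09 with values under 32 set to 32. These calls were kept with the replicate block (adjusted p = 0.0256 and 0.031) and in all 6 fits that left out 1 array. In the annotation fipr-23, C37A5.3, fipr-22 and fipr-24 are neighbours, so that the called gene fipr-24 lies beside fipr-22. Apart from the thn-1 and thn-2 probe set described with the thaumatin-like genes, the other 5 were one of cnc-11 and R09B5.11, with a difference of 0.41 (SE 0.22, adjusted p = 0.533), and 4 with a difference of 0.

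The antibacterial factors gave little signal. Of the 5 genes, abf-1, abf-3 and abf-5 lay at the lowest intensity throughout, and abf-4 lay there on 5 arrays and at 4.64 in DMSO replicate G. For abf-2, intensity was 21.05, 21.05 and 33.6 in RPW-24, against 9.64, 12.7 and 7.39 in DMSO. The groups did not overlap, with means of 25.2 ± 7.23 in RPW-24 and 9.92 ± 2.67 in DMSO (SD, n = 3 each). The difference was 1.35 (SE 0.30), but the adjusted p was 0.111, and the difference was 0.02 with values under 32 set to 32. By limma 1 abf gene had an unadjusted p under 0.05.

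The thaumatin-like genes were also dim where a probe set was specific. For thn-1, 6.12, 6.12 and 4.65 in RPW-24 stood against 8.75, 12.8 and 6.12 in DMSO, with a difference of -0.66 (SE 0.31, adjusted p = 0.446). For thn-3, a pseudogene in the annotation, 9.73 on each RPW-24 array stood against 11.6, 9.73 and 7.46 in DMSO, with overlapping groups and a difference of 0.04 (adjusted p = 1), while thn-4 and thn-6 were at the lowest intensity throughout. A bright probe set shared by thn-1 and thn-2 had 1109, 1209 and 715 in RPW-24, against 7083, 7725 and 2397 in DMSO. All RPW-24 arrays were below all DMSO arrays, although DMSO replicate I was well below the other DMSO arrays. The difference of -2.37 (SE 0.55), a 5.15-fold lower level, passed the study's thresholds with the p of limma (0.00889) and did not with that of the methods' t-test (0.0487). Its adjusted p was 0.126, and 0.0258 among the brighter probe sets. Without DMSO replicate I it was 0.0489.

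The known regulators of the epidermal peptides were set beside them. In a list of 17 genes of the epidermal signalling cascade, 16 were measured, 2 were called higher and none lower. At an unadjusted p under 0.05 by limma, 6 were higher and 1 lower. For this list and those below, the shares over all genes were 2.63% called higher and 1.08% lower. At the unadjusted p they were 7.1% and 8.2%. The gene tir-1, encoding the adaptor protein at the top of the p38 cascade, had 198, 183 and 228 in RPW-24, against 63.4, 62.2 and 47.8 in DMSO. It was higher in all 3 RPW-24 samples by 1.82 (SE 0.15, adjusted p = 0.00912), and with the replicate block the adjusted p was 0.114. The gene vhp-1, encoding a phosphatase that turns MAP kinases off, had 441, 430 and 430 in RPW-24, against 228, 188 and 175 in DMSO. Its difference was 1.15 (SE 0.11, adjusted p = 0.0128, and 0.0872 with the replicate block). Leaving out 1 array gave 0.00648 to 0.0711, with the call kept without DMSO replicate G and without DMSO replicate I.

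Other components were not called over all probe sets. Among the brighter probe sets egl-8, a phospholipase C gene, was called as well (difference 0.77, adjusted p = 0.0433, and 0.0553 with the replicate block there). The receptor gene dcar-1 had groups apart, with a difference of 0.98 (SE 0.34, adjusted p = 0.28). The kinase gene pmk-1 had 103, 123 and 110 in RPW-24, against 108, 111 and 119.3 in DMSO, with a difference of -0.01 (adjusted p = 1). For nipi-3, a Tribbles-like kinase needed for nlp-29 induction, 474, 382 and 405 in RPW-24 stood against 315, 353 and 279 in DMSO, with groups apart and a difference of 0.41 (SE 0.13, adjusted p = 0.226). The transporter gene snf-12 lay at the lowest intensity throughout. The STAT-like gene sta-2 had 4.40, 4.42 and 6.40 in RPW-24 and 4.40 on each DMSO array, so both were too dim to be judged.

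In the TGF-beta pathway, 10 of 11 listed genes were measured, none was called higher and 1 was called lower. This was daf-4, the type II receptor, with 201, 178 and 197 in RPW-24, against 273, 263 and 252 in DMSO. Its groups were apart, and the difference was -0.45 (SE 0.06, adjusted p = 0.0356, and 0.143 with the replicate block). The call was lost whichever array was left out (adjusted p = 0.0603 to 0.145). With the mean of all its probe sets, the difference was smaller, at -0.25 (adjusted p = 0.0207 by limma). The ligand gene dbl-1 was near the lowest intensity, at 4.65 on each RPW-24 array and at 4.39, 4.65 and 4.65 in DMSO. The Smad gene sma-3 had 90.5, 90.5 and 92.3 in RPW-24 and 90.5 on each DMSO array. The value 90.5 was thus repeated across both groups, and whether it reads the RNA level was not tested.

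Genes that respond to epidermal damage and osmotic stress, conditions known to induce nlp-29, gave 0 calls by limma among 13 of 15 measured, with 0 higher and 1 lower at an unadjusted p under 0.05 by limma and by the methods' t-test. That gene was gpdh-1, a glycerol synthesis enzyme induced by osmotic stress, with 195, 239 and 184 in RPW-24, against 583, 337 and 683 in DMSO. The groups did not overlap, and the difference of -1.32 (SE 0.31) had an adjusted p of 0.125, of 0.0272 among the brighter probe sets (0.0601 with the replicate block there) and of 0.0495 without DMSO replicate H.

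**Figure D4:**
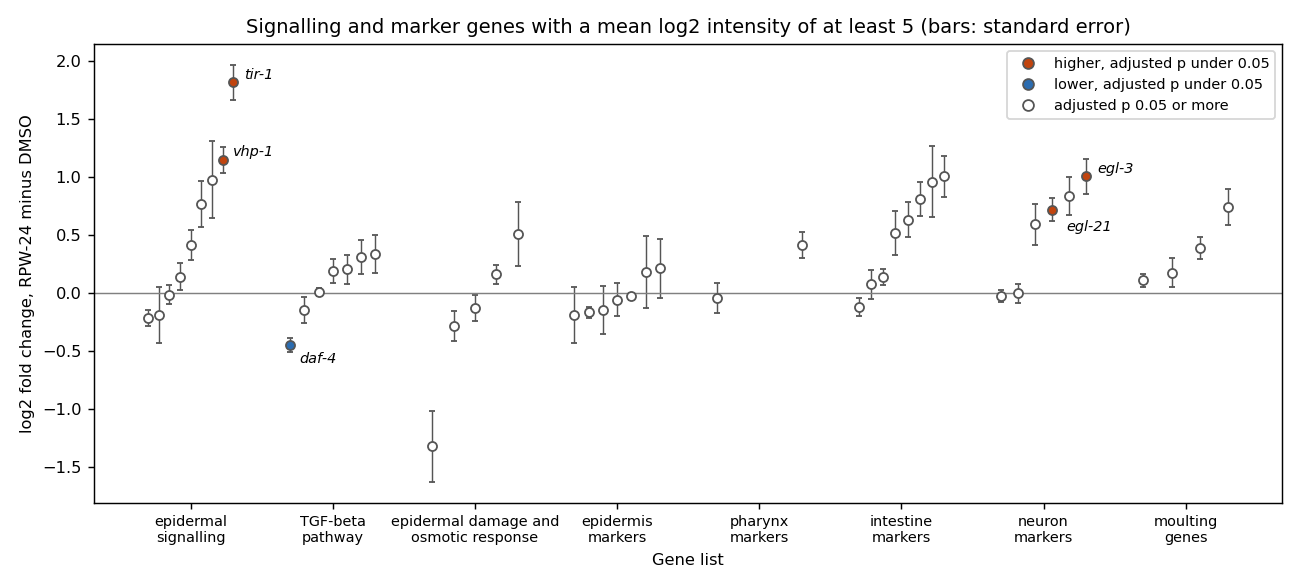
Difference in log2 intensity (RPW-24 minus DMSO, with limma's standard error) of the genes in 8 lists that had a mean log2 intensity of at least 5, with filled circles for an adjusted p under 0.05. tir-1 (1.82), vhp-1 (1.15), egl-3 (1.01) and egl-21 (0.72) are higher, daf-4 (-0.45) is lower, and the 7 epidermis markers lie near 0.

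Markers of the tissues that make these peptides were read in the same arrays. Of 14 epidermis markers, 7 were bright, with a median difference of -0.06, and limma called 0, with 0 higher and 1 lower at an unadjusted p under 0.05. Their summed intensity was 40896 to 42884 in RPW-24 and 42482 to 45110 in DMSO, and che-14 and bli-2 stayed at the lowest intensity. Most of these sums came from the collagens sqt-3 (-0.03) and col-19 (-0.06), and the other bright markers had differences between -0.19 for elt-3 and 0.21 for mup-4. Of 8 pharynx markers, 0 were called by limma, 1 was higher at an unadjusted p under 0.05, and ceh-22 and myo-2 were at the lowest intensity. Their sum was 2645 to 3051 in RPW-24, against 1947 to 2374 in DMSO, and nearly all of it was mlc-1, with a difference of 0.42 (adjusted p = 0.0486 among the brighter probe sets). The other bright marker, tni-4, had -0.04, and the part of pharynx RNA in the abf values was not tested.

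Intestine markers gave 0 calls among the 9 measured, but 6 were higher at an unadjusted p under 0.05 by limma and 4 by the methods' t-test. Among the brighter probe sets 3 of 8 were called higher, where 10.3% of bright genes were. These were ifb-2 (1.01, adjusted p = 0.0109), mtl-2 (0.81, adjusted p = 0.0119) and ges-1 (0.63, adjusted p = 0.0366, and 0.0749 with the replicate block there). With the replicate block there, elt-7 was called higher (0.96, adjusted p = 0.0389, and 0.0678 without the block). The dim marker pgp-1 had the largest difference of the list (1.99, adjusted p = 0.0877 by limma). It passed the study's thresholds as higher with the p of limma (0.00478) and not with that of the methods' t-test (0.0728). With values under 32 set to 32 its difference was 0.03. The sum of the 9 intestine markers was 74596 to 83089 in RPW-24, against 62843 to 76347 in DMSO. Most of it came from asp-1 (-0.12) and mtl-2. Of 10 neuron markers 2 were called higher, where 2.63% of all genes were. These were the neuropeptide processing genes egl-21 and egl-3. The intensity of egl-21, a carboxypeptidase, was 634, 539 and 541 in RPW-24, against 381, 322 and 339 in DMSO (difference 0.72, SE 0.10, adjusted p = 0.0363, and 0.0411 with the replicate block). For egl-3, a proprotein convertase, 285, 343 and 324 in RPW-24 stood against 174, 172 and 130 in DMSO (difference 1.01, SE 0.15, adjusted p = 0.0436, and 0.175 with the replicate block). Neither call was kept in any fit that left out 1 array. Among the brighter probe sets sbt-1, a chaperone of EGL-3, was called too (0.84, adjusted p = 0.0207). The neuron sum was 6172 to 6857 in RPW-24, against 5584 to 6114 in DMSO, and most of it was snb-1, with means of 4670 and 4673.

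Several of these peptides are known to follow the moulting cycle, so moulting genes were read as well. None of the 14 was called by limma, and 2 were higher at an unadjusted p under 0.05, where 7.1% of all genes were. Among the brighter probe sets nas-37 was called higher (0.74, adjusted p = 0.0244). The summed intensity of the 14 was 579 to 636 in RPW-24, against 438 to 497 in DMSO, without overlap. Only 4 of the 14 were bright, and nas-37 made the largest part of the gap, with means of 232 in RPW-24 and 140 in DMSO. The part of the moulting genes in the differences of the peptide genes was not tested.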

How the data were processed

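RNA of 6 whole-animal samples was hybridized to Affymetrix C. elegans arrays, and the authors deposited 1 table of intensity values, made by GC-RMA with quantile normalization in GenePattern and written on the linear scale. The table held 22625 probe sets. After 77 control probe sets were left out, 22548 were tested as log2 intensity with limma 3.58.1 (R 4.3.3), with lmFit on group, eBayes with a variance trend, and Benjamini-Hochberg adjustment. Gene names came from the array annotation, in which 20766 probe sets had 1 gene, 887 several and 895 none, and all 37 members were matched by symbol in WBcel235. Of 69 family genes in that annotation, 12 were read only by probe sets of several genes and 20 by none, and these are not members. "At the lowest intensity" means within 0.01 of 4.39. An array has no read depth, and the number of arrays limits precision: an exact permutation test of 3 against 3 cannot go below p = 0.1.

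Per the submitters' design text, RPW-24 and DMSO exposures of a biological replicate were done in parallel, and the sample titles name the replicates by letter. Deviations from the group means correlated at 0.0882 (G), 0.144 (H) and 0.138 (I) over 13673 probe sets. The main fit was made on group alone and did not use the pairs. The letters were taken as pairs only in the fits with the replicate block and in the pair differences. The block result stands beside each result whose call it changed. Alternatives were the replicate block, limits and floors on dim values, other scalings, and fits without the variance trend. Further ones left out _x_at and _s_at probe sets or took all probe sets of a gene. The last were the plain t-test on linear intensities and each array left out. The members, lists and alternatives were chosen with earlier results of these data known. Values per array are given for members that were called, passed the study's thresholds, or were bright with groups apart, and for the brightest 2 of each family. The remaining 19 are given by range, with nlp-30 and fip-5 added after their values were seen. From the gene lists, called genes and 7 fixed genes are given, and egl-8, dcar-1 and the markers outside that rule were chosen after their values were seen. The fit was tested on simulated data with known changes. P-values measure the spread between these 3 biological replicates a group.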

Additional observations from a re-analysis of the deposited data

Results flagged for a closer look

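The pair of probe sets annotated to both fipr-22 and fipr-23 lay outside the comparison of single-gene members and had a signal above the DMSO level on every RPW-24 array. Their differences in log2 intensity were 4.06 for the _s_at probe set and 4.17 for the _x_at probe set, with adjusted p-values of 0.000899 and 0.0035 by limma. With all values under 32 set to 32, which raises every DMSO value, the differences were 2.73 and 2.09. The share of each gene in the signal cannot be told apart with these probe sets.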

How the results depend on the processing

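The numbers of members called depended on the setting. With the replicate block 0 were higher and 0 lower at an adjusted p under 0.05. The plain t-test on linear intensities after Benjamini-Hochberg also gave 0 and 0 (unadjusted p under 0.05: 7 higher and 3 lower). With values under 32 set to 32, 0 were higher at either threshold and the fip and fipr median was 0. Without _x_at and _s_at probe sets, which left 17 members, 0 were higher at either threshold, 0 were lower at the study's thresholds and that median was 0. Limited to a mean log2 of at least 5, 3 were lower, 0 were higher at the study's thresholds, and the cnc and fip and fipr medians were -0.79 and 0.0934. The same limit with the replicate block gave 1 higher, 3 lower, 0 higher at the study's thresholds and the same medians. Centring arrays on their medians moved the median of all genes by -0.14 and gave 6 higher and 22 lower members. Of all 22548 probe sets, 1112 were then called higher and 14480 lower. Genes at the lowest intensity on every array, such as snf-12, also became lower (-0.14), so these counts do not read a change of the members. Family medians were -0.14 (cnc), -0.10 (nlp), -0.13 (fip and fipr), -0.14 (abf) and -0.14 (thn). Centring turned nlp-28 (-0.10), thn-3 (-0.10), dbl-1 (-0.11) and sma-3 (-0.13) lower. Further quantile normalization gave 3 lower members, where 814 of the 22548 probe sets were lower. Its medians were -0.0588 (cnc) and 0 (fip and fipr), with -0.10 for thn-3 and -0.14 for sma-3.

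With 1 array left out, 1 to 3 members were higher and 0 to 1 lower, and 2 higher and 0 to 1 lower at the study's thresholds (0 lower without RPW-24 replicate I). Medians were 0.00 (cnc, abf), 0 to 0.16 (nlp), 0 to 0.0389 (fip and fipr) and -0.06 to 0 (thn). Near-0 differences changed sign for nlp-28 (-0.0456 to 0.16), thn-3 (-0.13 to 0.19) and pmk-1 (-0.0815 to 0.0423). The adjusted p of nlp-31 was 0.061 without the variance trend. Of the values of named genes over 16 alternatives, 383 kept direction and side of the threshold, 27 passed it newly, 63 lost it and 12 changed sign. Of the 37 members, 23 had a mean log2 intensity under 5, and 11 of these were at the lowest intensity on every array, where no change can be read.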

Other observations

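Some of the deposited intensities were identical on 2 or more arrays of a group. Among the 14 members with a mean log2 intensity of at least 5 this held for cnc-8, fip-5 and fipr-21 (21.4%), against 19.4% of the 7365 genes of that brightness. Identical values make the spread between replicates of such a gene small. Some values above the lowest intensity were also repeated across both groups. For fip-5, 43.1 stood on each RPW-24 array and on DMSO replicate I, and sma-3 had 90.5 in both groups. Whether such repeated values read the RNA level was not tested.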
